A study of Mus musculus with 4 samples.

Results

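The miR-31 hairpin gives rise to 2 mature microRNAs (miRNAs), miR-31 from its 5′ arm and miR-31* from its 3′ arm, and both were followed in mouse embryonic fibroblasts (MEFs) with and without the kinase gene Lats2. The members were all probes whose name in the scanner files was mmu-miR-31 or mmu-miR-31*, that is 2 of the 650 miRNA names on the array (611 of them mouse) and 4 of its 1857 probes. This hairpin was chosen because its strands rose most in the cells without Lats2 among the miRNAs measured on all arrays. The difference of its strands between genotypes is therefore described here and not tested. All cells were C57BL/6J MEFs, untreated, cultured in DMEM with fetal bovine serum. Lats2-/- (KO) cells came from 1 clone at PDL 70 and 96 (a label that the records do not spell out, read here as a measure of culture age), and Lats2+/+ (WT) littermate cells from 1 other clone at PDL 68 and 90, with 1 single-colour (Cy3) Agilent mouse miRNA array per culture. The 2 arrays of a genotype are therefore 1 clone at different culture ages, and genotype and clone cannot be told apart. The sample source text writes the gene as LAT2, whereas the genotype field writes Lats2, and the array carries no probe for the Lats2 mRNA with which the labels could be checked.

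A miRNA is cut from one arm of a folded RNA hairpin, loaded into an Argonaute protein and pairs with mRNAs chiefly through its seed, the bases near its 5′ end, which lowers their stability and translation. The arm retained less often was marked with a star in older names, and miR-31 and miR-31* are now called miR-31-5p and miR-31-3p. miR-31 is known from epithelial and mesenchymal cells as a regulator of adhesion, migration and differentiation, and Polycomb proteins are known to silence its gene in human T-cell leukaemia. In human and mouse lung cancer cells it is known to repress LATS2 itself, the kinase that is deleted here and that restrains the growth-promoting factors YAP and TAZ in the Hippo pathway.

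The mature strands are shown because the array probes read only a portion of each. Capitals mark the seed, bases 2 to 8 from the 5′ end, in the RefSeq sequences (GRCm38.p6).
miR-31: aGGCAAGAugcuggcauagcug
miR-31*: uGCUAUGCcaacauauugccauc
Neither seed was found in any other of the 1679 mature mouse miRNA names in the RefSeq table, so each strand stood alone in its seed group. In the RefSeq hairpin of 106 bases, the mature strands in capitals occupied bases 28 to 49 and 64 to 86, with 14 loop bases between them.
Mir31 hairpin: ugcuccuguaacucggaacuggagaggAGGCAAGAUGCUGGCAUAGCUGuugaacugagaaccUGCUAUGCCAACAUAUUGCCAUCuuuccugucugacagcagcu
A minimum free energy fold of this hairpin (RNAfold, -48.7 kcal per mol) paired 17 of the 22 bases of miR-31 with bases of miR-31*.

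Each strand was read by a longer and a shorter probe, which differ by the 1 base in capitals.
miR-31, longer probe: cagctatgccagcatcT
miR-31, shorter probe: cagctatgccagcatc
miR-31*, longer probe: gatggcaatatgttggcaT
miR-31*, shorter probe: gatggcaatatgttggca
Read as reverse complements, the miR-31 probes matched bases 6 to 22 and 7 to 22 of that strand, and the miR-31* probes matched bases 5 to 23 and 6 to 23. All 4 probes therefore reached the 3′ end of the strand and left the first bases of the seed unread. Among the other mature mouse sequences, the one closest to the miR-31 probe targets was miR-1941-5p, with 4 mismatches. For the miR-31* targets it was let-7b-3p, with 6 mismatches to the shorter and 7 to the longer.

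On mm9 the files place the miR-31 probes at chr4:88556494-88556509 and chr4:88556495-88556509, and the miR-31* probes at chr4:88556529-88556546 and chr4:88556530-88556546. In these positions the 3′ end of miR-31* lies 37 bases above that of miR-31, whereas the RefSeq table, which puts the hairpin on the minus strand, has it 37 bases below. The deposited positions thus run as if the hairpin were on the plus strand, and are exact only to within its length. By name in the GRCm38.p6 gene table, the hairpin lies inside the long non-coding RNA gene Gm49890. The nearest protein-coding genes are Ifne, for an interferon, on one side and Mtap, for an enzyme of methionine salvage, on the other, followed by Cdkn2a and Cdkn2b, whose proteins inhibit the cell cycle.

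The arrays lay on 1 slide and were read in 1 scan. KO arrays had 157 and 161 names well above background and WT arrays 125 and 129, which means that over 0.5 of a probe's unflagged spots carried the scanner software's flag of that name. Of 8 fibroblast and mesenchymal markers 7 were well above background on all 4 arrays (miR-145 on none), with a summed signal of 22250 to 23384 units in KO and 21365 to 26788 units in WT. Of 8 epithelial, 5 blood, 4 neural, 2 endothelial and 1 liver markers, 0 passed that flag on any array, and of 4 muscle markers only miR-206 did. Summed signals of the muscle list were 34.5 to 37.7 units in KO and 35.8 to 36.9 in WT, and those of the epithelial list, in which miR-31 itself is often abundant, 8 to 8.15 units in KO and 8 to 10.52 in WT, where 8 is the floor for 8 names. Neural markers summed to 14.4 to 14.5 units in KO and 7.82 to 8.76 in WT, and endothelial markers to 4.93 to 6.61 and to 2, with miR-124, miR-9 and miR-137 at the floor on all arrays. The part of these sums in the results was not tested. In such bulk RNA, fewer cells that make a miRNA and less of it per cell cannot be told apart.

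miR-31, the strand with the known targets, had a scaled signal (brightest probe, each array divided by its 75th percentile over probes measured on all arrays) of 662 units in the KO culture at PDL 70 and 637 units at PDL 96. In WT it had 116 units at PDL 68 and 106 units at PDL 90. Both KO cultures were high and both WT cultures low, with no overlap. On the log2 scale the arrays read 9.37 and 9.31 in KO and 6.86 and 6.73 in WT, so KO exceeded WT by 2.55 ± 0.08 (SE of the fit, n = 2 per group), a 5.85-fold difference. The smallest gap between a KO and a WT array was 2.46 and the largest 2.64, while arrays of 1 genotype differed by 0.057 in KO and 0.12 in WT.

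miR-31*, the partner strand, is discarded more often than miR-31 and has few studied targets. Its scaled signal was 187 units (PDL 70) and 193 units (PDL 96) in KO, whereas in WT it was 30.9 units (PDL 68) and 26.7 units (PDL 90). The genotypes again did not overlap, and the order within KO was the opposite of that of miR-31. In log2 terms the signals were 7.55 and 7.59 in KO against 4.95 and 4.74 in WT, a difference of 2.73 ± 0.10 (SE, n = 2 per group) or 6.62-fold. WT signals of miR-31* stood only 1.06 and 0.78 above the lowest log2 signal that counted as well above background on their arrays, whereas those of miR-31 stood 2.96 and 2.78 above it. A name of mouse cytomegalovirus, mcmv-miR-M23-1-5p, also passed the flag on all 4 arrays and is counted among the miRNAs tested. It read 5.46 and 5.42 in WT, above miR-31*, so the flag alone does not show that a signal at this level is specific. Both KO arrays lay above both WT arrays for 2 of 2 strands and for 60.4% of the 159 miRNAs tested, and 43.4% of these were called higher in KO, with 57.9% called in either direction and 19.5% with both KO arrays below both WT arrays, backgrounds from which nothing is read since the hairpin was chosen on this contrast.

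Each probe was printed as 10 spots per array, which share 1 hybridisation and are not replicates of a culture. For the longer miR-31 probe the unscaled spot intensity was 689.9 ± 62.1 units (SD over 9 unflagged spots) and 702 ± 44.1 units (10 spots) in KO, and 111 ± 11.5 and 95.5 ± 16.1 units (10 spots each) in WT. The shorter miR-31 probe read 274 ± 28.4 and 271 ± 22.5 units on the KO arrays, against 41.1 ± 3.85 and 32.4 ± 12.6 units on the WT arrays. Replicate arrays of a genotype thus overlapped spot by spot, and arrays of different genotype did not.

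For miR-31* the longer probe gave 195 ± 19.6 and 213 ± 13.2 units on the KO arrays, against 29.6 ± 2.70 and 23.9 ± 7.43 units on the WT arrays. Its shorter probe gave 73.7 ± 13.8 and 85.2 ± 2.65 units with KO and 11.5 ± 1.63 and 10.9 ± 2.58 units with WT. On that shorter probe only 1 of 9 unflagged spots was well above background on each WT array, so the WT level of miR-31* rests on the longer probe. For every one of the 4 probes, flagged spots included, the dimmest KO spot was brighter than the brightest WT spot, from 320 against 132 units for the longer miR-31 probe to 48.7 against 15.1 units for the shorter miR-31* probe.

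**Figure D1:**
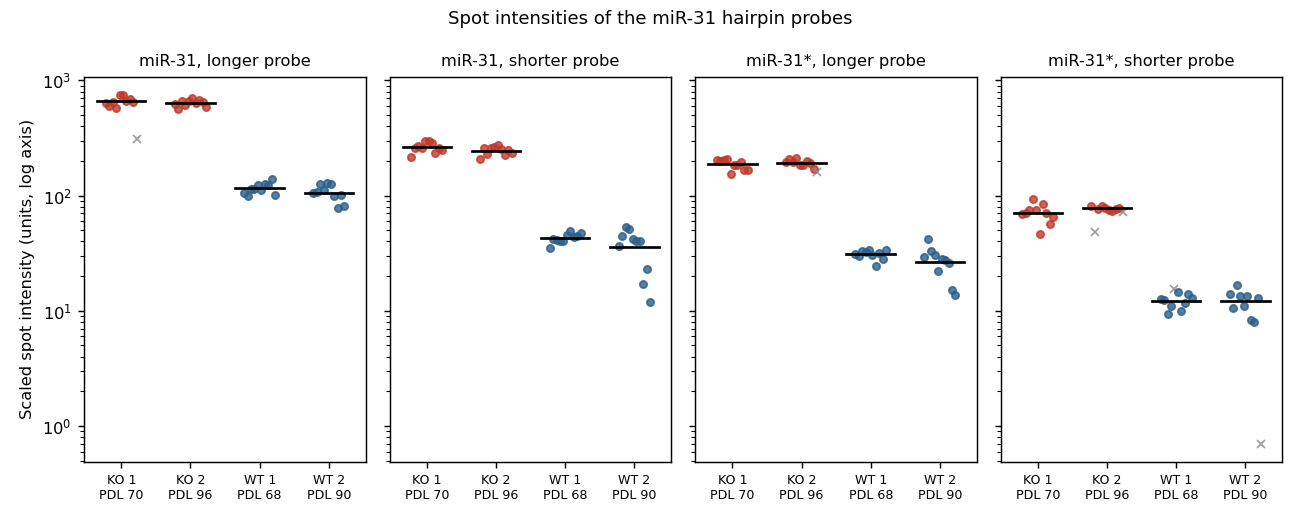
Scaled intensity of each spot (vertical axis, units, log scale) on the KO arrays (red) and WT arrays (blue), 1 panel per probe, with the mean of unflagged spots as a black line and flagged spots as grey crosses. For miR-31 the means of the longer probe are 662 and 637 units in KO against 116 and 106 units in WT, and no panel has a KO spot at or below a WT spot.

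KO exceeded WT by 2.55 with the longer and 2.69 with the shorter miR-31 probe, and by 2.73 with the longer miR-31* probe (log2, means of 2 arrays), which is 5.85-fold, 6.46-fold and 6.62-fold. No fold is given for the shorter miR-31* probe, whose WT signals were not well above background.

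Position on the slide moved with these values on 1 array more than on the others. In the array rows after row 144 of 192, spots of measured probes deviated from their probe's median by a median log2 of -0.15 on the WT array at PDL 90, against -0.088 and -0.033 on the KO arrays and -0.0049 on the other WT array. Of the 40 member spots on each array 10 lay in those rows. Without these rows, an alternative added after the data were seen, KO exceeded WT by 2.58 for miR-31 and 2.72 for miR-31*.

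Among the 115 miRNAs measured on all 4 arrays, miR-31* and miR-31 ranked first and second by rise. The nearest outside the choice were miR-183 with 1.92, miR-96 with 1.72 and miR-155 with 1.47 (KO minus WT, log2). miR-183 and miR-96 come from 1 cluster known from sensory cells, and miR-155 is known from immune cells. The members held the first 2 ranks under all 9 settings ranked, with miR-31 ahead of miR-31* after quantile normalization and with normexp background correction, and the next value ran from 1.18 to 2.12. Across all 159 tested miRNAs the median difference was 0.31, and scaling by the median of the measured probes shifted it to -0.093, so each member's gap is to be read against such a shift. The largest difference among the 159 was 7.04, and all those larger than the members' belonged to miRNAs below background on the WT arrays.

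**Figure D2:**
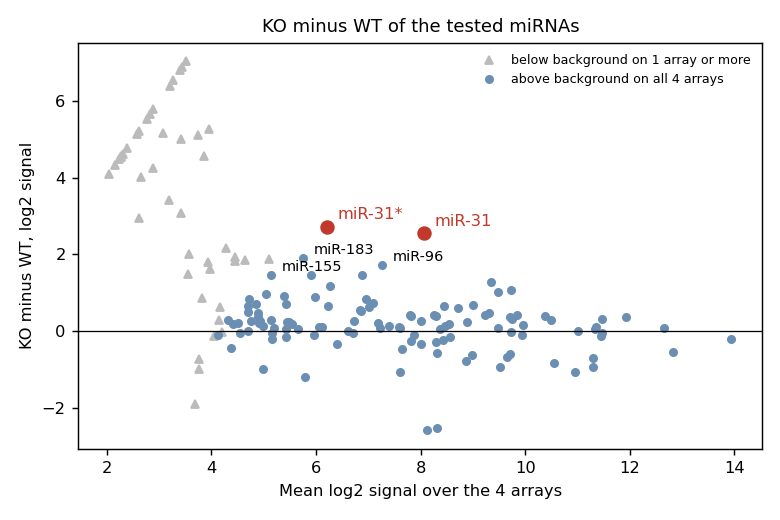
KO minus WT in log2 signal (vertical axis) against the mean log2 signal over the 4 arrays (horizontal axis) for the 159 tested miRNAs, with circles for the 115 measured on all arrays and triangles for the rest, whose values depend on the floor. miR-31* at 2.73 and miR-31 at 2.55 are the highest circles, followed by miR-183 at 1.92.

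Likeness to miR-31 was measured as the root mean square difference between log2 signals, each centred on its own mean over the 4 arrays, among the 115 miRNAs measured on all of them. The smallest was that of its own partner miR-31*, at 0.10. Outside the hairpin the closest were miR-183 (0.32), miR-96 (0.41), miR-155 (0.55), miR-494 (0.59) and miR-689 (0.62). miR-494 lies in the imprinted Dlk1-Dio3 region of chromosome 12, and none of the 5 lies on chromosome 4. Unlike the other tested miRNAs of that region, miR-494 was well above background in WT, at 6.35 and 5.98. miR-183 read 6.72 and 6.70 in KO and 4.77 and 4.82 in WT, whereas miR-689 read 7.08 and 6.18 in KO and 5.18 and 5.17 in WT, so the KO arrays differed far more for the latter than for miR-31. Over 4 arrays of 2 genotypes this measure carries how far a miRNA rose in KO, the property by which the hairpin was chosen.

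The strand difference, log2 miR-31 minus log2 miR-31*, was 1.83 and 1.72 on the KO arrays and 1.91 and 2.0 on the WT arrays. Its level carries the unequal response of different probes and is no ratio of molecules, so only its change between arrays is described. The mean was 1.77 ± 0.07 in KO and 1.95 ± 0.06 in WT (SD, n = 2 each), a change of -0.18, and the KO arrays lay below the WT arrays. That direction turned under 2 alternatives, since the change was 0.13 after quantile normalization and 0.63 with normexp, a background correction that adds an offset to every spot. The offset was 50 units, more than the scaled WT signals of miR-31* (30.9 and 26.7 units). Such an offset lessens the log2 gap of a dim strand more than that of a bright one. It was -0.11 with both the scanner's total miRNA signal and the mean of both probes.

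In all, 5 pairs of strands, matched by name, were well above background on both strands and all 4 arrays. The probes of miR-29b and miR-29b* are placed on chromosomes 1 and 6, so that pair need not come from 1 hairpin. The largest change in strand difference was that of miR-22, an abundant fibroblast miRNA, with -0.44 (6.42 and 6.40 in KO, 6.74 and 6.97 in WT), followed by miR-31 with -0.18 and miR-199a, a mesenchymal miRNA, with -0.17. The changes of miR-29b (0.11) and miR-140 (0.053) were smaller, and the KO and WT arrays overlapped for 3 of the 5 pairs, miR-22 and miR-31 being the exceptions. miR-22 itself differed by only 0.054 between genotypes. Its partner miR-22* read 4.63 and 4.29 in WT, near the lowest log2 signals well above background on those arrays (3.89 and 3.95). None of these changes was tested.

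**Figure D3:**
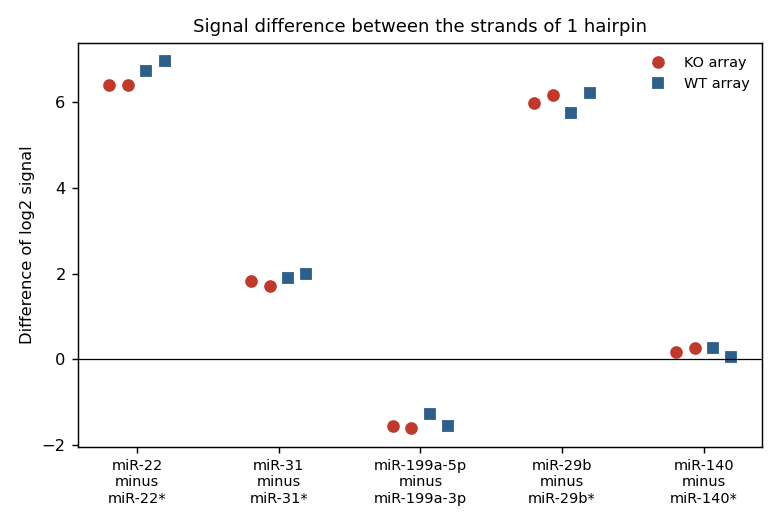
Difference in log2 signal between strands paired by name (vertical axis) for the 5 pairs measured on both strands, with 1 point per array. KO arrays are red circles and WT arrays are blue squares. For miR-31 the KO arrays lie at 1.83 and 1.72 and the WT arrays at 1.91 and 2.0, a small change beside the 2.55 by which miR-31 itself differed.

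Culture age was not used to choose the hairpin and could be tested. The comparison asks whether miRNA levels differed between the later cultures (PDL 96 in KO, 90 in WT) and the earlier ones (PDL 70 and 68), with genotype in the model. miR-31 changed by -0.090 ± 0.074 and miR-31* by -0.082 ± 0.11 (log2, SE, 4 arrays), and neither was called (limma, two-sided, adjusted p = 0.83 and 0.89). The 95% intervals, -0.37 to 0.19 and -0.50 to 0.33, bound a change with age far below the gap between genotypes, but do not show that there was none. By size these changes ranked 80 and 85 of the 159. limma called 0 of 159 miRNAs in this comparison (0%), while 8 had an unadjusted p under 0.05, with 5 higher and 3 lower in later cultures, and the median absolute change was 0.090.

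Within a genotype the change with age rests on 1 array at each age. miR-31 fell by 0.057 in KO and fell by 0.12 in WT from the earlier to the later culture. For miR-31* the log2 signal differed by 0.048 in KO and by -0.21 in WT. The later WT culture is the array whose rows after row 144 were dim. Without these rows the change of miR-31* with age over both genotypes was -0.0034 in place of -0.082, and the change within WT was not computed.

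To place the hairpin on its chromosome, the other 27 names that the files put on chromosome 4 were listed. The hairpin's nearest listed miRNA, miR-491, which lies within the gene Focad at -0.789 Mb (toward lower positions), did not pass the background flag on any of the arrays. Of the 27 names 23 passed it nowhere and 4 were tested. Higher values in KO were called for 2 of the 4 (43.4% of all tested miRNAs), lower values for none (14.5%), and the median difference of the 4 was 0.33 against 0.31 over all tested. Of the 4 only 3 were measured on all 4 arrays. When only the 115 such miRNAs were tested, 2 of these 3 were called higher and 0 lower. Of the 115, 42 were called higher and 21 lower, with a median of 0.17.

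miR-872, at 5.78 Mb from the hairpin, read 5.02 and 5.08 in KO and 4.78 and 4.82 in WT, a rise of 0.25 ± 0.06 (adjusted p = 0.045, limma). miR-34a, which p53 induces, lies 60.9 Mb away and read 9.44 and 9.43 in KO and 9.12 and 8.93 in WT, a rise of 0.41 ± 0.09 (adjusted p = 0.034). Both gaps were a small portion of those of the hairpin, and the value of miR-872 turned to -0.64 after quantile normalization, where it was called lower in KO (adjusted p = 0.031), and to -0.15 with median scaling, where that of miR-34a was 0.0087. The call of miR-872 was lost when any 1 array was left out, and that of miR-34a without either KO array or without the WT array at PDL 90. Both calls were also lost with PDL stage as a block (adjusted p = 0.094 and 0.066), with the mean of all probes, with the total signal, with median scaling and with dim miRNAs kept in the test. Normexp ended that of miR-872 too.

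miR-30e, of a family expressed in most tissues, had 5.83 and 5.99 in KO and 6.14 and 5.86 in WT, with a difference of -0.092 ± 0.14 that was not called (adjusted p = 0.60), although median scaling (-0.49) and quantile normalization (-0.73) made it a call for lower values in KO. miR-101a, known to target the mRNA of the Polycomb enzyme Ezh2, lies 12.5 Mb away and was well above background on the KO arrays alone, with 4.65 and 4.50 in KO. Its mean in KO was 1.57-fold the mean of the lowest signals that counted as well above background on the WT arrays. This is no lower bound, since a signal that fails the flag can exceed that level. miR-101a had measured means of 4.57 in KO and 2.58 in WT and was not called (limma, adjusted p = 0.065). It was called without scaling (adjusted p = 0.049), with normexp (0.045) and without the rows after row 144 (0.011). Leaving out either WT array also made it a call (adjusted p = 0.0027 and 0.0091), with the lone WT array assumed to vary like the KO arrays.

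**Figure D4:**
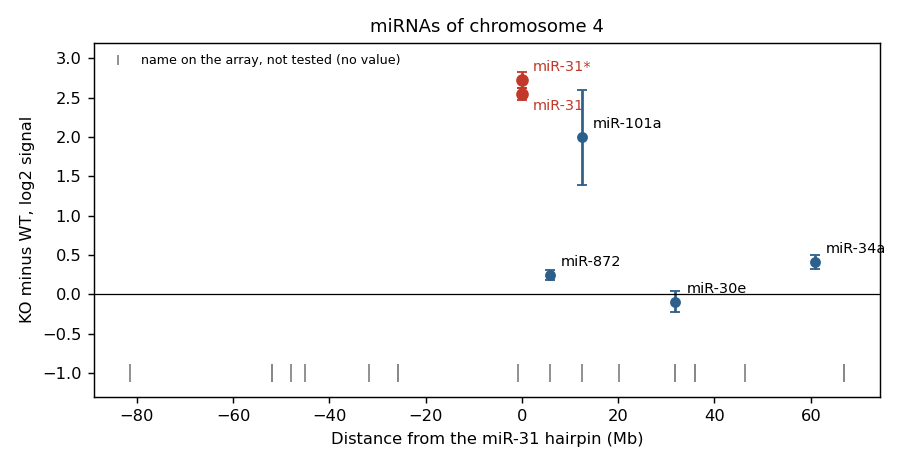
KO minus WT in log2 signal (vertical axis, with SE) against distance from the miR-31 hairpin in Mb (horizontal axis) for the hairpin (red) and the 4 other tested miRNAs of chromosome 4 (blue), with grey ticks for the 23 names that were not tested. The hairpin's strands stand at 2.55 and 2.73 and the called neighbours miR-872 and miR-34a at 0.25 and 0.41, with miR-101a at 2.0 resting on WT signals below background.

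Since miR-31 is known to repress Lats2, other miRNAs with that target were counted. The list held 10 names, namely miR-25, miR-93, miR-135b and miR-181b, with the target known mostly from human cells, and 6 of the miR-290 and miR-302 groups, which carry the seed of the human miRNAs miR-372 and miR-373. Of these 3 were tested, 2 fell in KO (14.5% of all tested miRNAs did), 0 rose (43.4%) and 1 was not called, with a median of -0.26 against 0.31 over all tested. These 3 were measured on all 4 arrays. When only the 115 such miRNAs were tested, 42 were called higher and 21 lower in KO, with a median of 0.17. The other 7 listed names, with miR-135b and all of the miR-290 and miR-302 groups, passed the background flag nowhere. Other miRNAs with the seed of miR-93, such as miR-20a, miR-20b and miR-106b, or of miR-25, such as miR-92a, were not listed. In the same fit miR-20a (0.46), miR-20b (0.41) and miR-92a (0.36) were called higher in KO, and miR-106b (-0.28) lower. The split within the list thus depends on which names it held.

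miR-25 and miR-93 come from the cluster in an intron of Mcm7, a gene of DNA replication. miR-25 read 7.89 and 7.77 in KO and 8.16 and 8.20 in WT and fell by 0.35 ± 0.07 (adjusted p = 0.032), and miR-93 read 7.72 and 7.63 in KO and 7.95 and 7.93 in WT and fell by 0.26 ± 0.07 (adjusted p = 0.045, limma). The call of miR-93 was lost with outlier spots kept or the rows after row 144 left out. Neither call remained when any 1 of the 4 arrays was left out, with PDL stage in the model, without scaling or without the filter on dim miRNAs. miR-181b had 5.04 and 4.73 in KO and 4.77 and 4.50 in WT, overlapped between genotypes and was not called (0.25 ± 0.17, adjusted p = 0.28), with -0.54 after quantile normalization.

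The size of the gap between genotypes depended on scale and background more than on any one culture. Leaving out each array in turn gave 2.49 to 2.61 for miR-31 and 2.62 to 2.83 for miR-31*. Median scaling gave 2.15 and 2.32, and no scaling gave 2.76 and 2.94. Normexp gave 2.02 for miR-31 and 1.39 for miR-31*, the dimmer strand. Under every setting run, both strands stayed above 1 on the log2 scale.

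**Figure D5:**
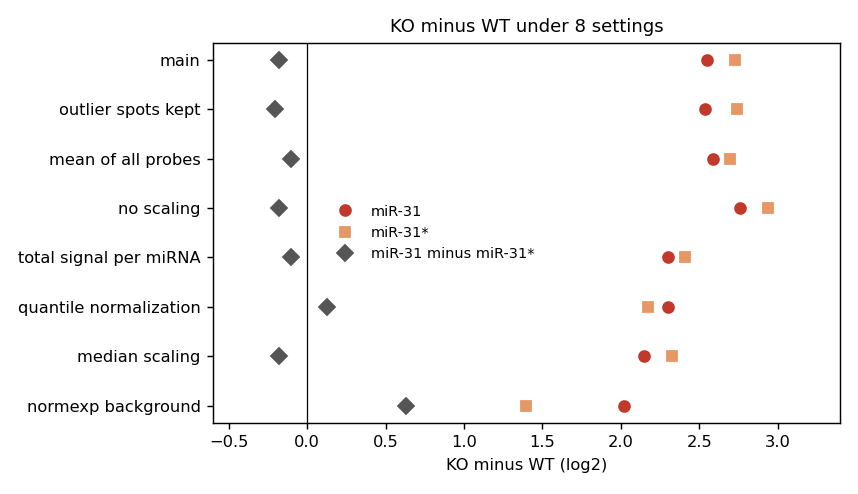
KO minus WT on the log2 scale (horizontal axis) for miR-31 (red circles), miR-31* (orange squares) and their difference (grey diamonds) under 8 ways of processing the same 4 arrays. miR-31 lies between 2.02 and 2.76 and miR-31* between 1.39 and 2.94, while the strand difference lies on both sides of 0, from -0.20 to 0.63.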

How the data were processed

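Per the file headers, the authors scanned each single-colour array with Agilent Feature Extraction 10.5.1.1 (design on mm9), which gave a background-subtracted, spatially detrended intensity per spot with no normalization between arrays, a total signal per miRNA and flags. The deposited value table holds the same intensity, within 0.495% of the scanner values. Its column medians were -0.585 and -0.581 in KO and -2.01 and 0.595 in WT. Controls and outlier-flagged spots were dropped, the spots of a probe averaged, and signals scaled to the 75th percentile of 192 probes that were well above background throughout (458 to 562 units). Values under 1 unit were set to 1 before log2, and the brightest probe stood for a miRNA. The 159 miRNAs that passed the background flag in both cultures of 1 or both genotypes were fitted with limma 3.58.1 in R 4.3.3 (two-sided, Benjamini-Hochberg, called under 0.05), and the fit was tested on simulated data. Replicate numbers follow the order of the records and pair no samples. p-values measure only the spread between these arrays, whose number limits the precision. Hairpins were folded with RNAfold 2.7.2. Named miRNAs were the members, the 3 next rises, the 5 most like miR-31, the tested list members and the 3 strand pairs of largest change. miR-29b, miR-140, miR-491, miR-455, miR-135b and the other untested list members fall outside this rule and were named after their values were seen. The same holds for miR-20a, miR-20b, miR-92a, miR-106b and the viral name mcmv-miR-M23-1-5p. The members, lists and rules were chosen with earlier results of these data known. Alternatives covered scaling, background, probes, filter, PDL and left-out arrays.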

Additional observations from a re-analysis of the deposited data

Results flagged for a closer look

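The change of miR-31* from the earlier to the later culture went opposite ways in the genotypes, 0.048 in KO and -0.21 in WT on the log2 scale. Each rests on 1 array per age, and the difference was not tested. Opposite signs were also found for 70 of the 159 tested miRNAs, or 44.0%. Some of the 159 were at the floor on both WT arrays, such as those with the largest rises, and for them no change with age in WT can be seen.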

How the results depend on the processing

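The KO minus WT value of miR-31 was 2.15 with median scaling, 2.30 after quantile normalization, 2.76 without scaling, 2.02 with normexp and 2.30 with the scanner's total miRNA signal, while that of miR-31* was 2.32, 2.17, 2.94, 1.39 and 2.41. The change in strand difference moved to 0.13 after quantile normalization, 0.63 with normexp and -0.11 with the mean of all probes or the total signal. It ran from -0.23 to -0.13 when arrays were left out in turn. With culture age, miR-31 turned to 0.0093 after quantile normalization and miR-31* to 0.015 with normexp and 0.012 with the total signal, none of them called. When an array was left out, without a test, they ran from -0.12 to -0.057 and from -0.21 to 0.048. Of all tested miRNAs 92 were called between genotypes, 60 without the filter, 38 to 97 with an array left out, and 39 in the methods' t-test, which also asks for a 2-fold change (33 after Benjamini-Hochberg). Calls on chromosome 4 numbered 2, against 1 with median scaling (miR-30e, lower in KO), 1 without the filter (miR-455, left out by it), 1 higher and 2 lower after quantile normalization, 0 with the mean of all probes, the total signal or PDL stage as a block, and 0 to 2 with an array left out. The 2 calls among Lats2-targeting miRNAs became 1 with outlier spots kept or the last rows left out and 0 without scaling, without the filter, with PDL stage as a block or with any array left out. The share of calls that were higher in KO was 75% against 51.4% with median scaling, 54.8% after quantile normalization, 60.6% with the total signal and 86.0% without scaling. Scaling by the 75th percentile over all probes could not be run, since that percentile was -0.10 units on WT replicate 1. The labels give no replicate numbers to pair arrays by, and the PDL stage as a block left 70 calls.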
